A study of Homo sapiens with 6 samples.

Results

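The TEAD transcription factors and the cofactors they work with were followed by their 9 genes, TEAD1, TEAD2, TEAD3, TEAD4, VGLL2, VGLL3, VGLL4, YAP1 and WWTR1, out of 23526 gene symbols in the deposited counts. The members were chosen by name. Their 25 RefSeq transcript rows were summed per gene in each of the 6 libraries, and all 9 genes passed the filter on low counts, which left 15771 genes tested. VGLL2 passed only through its counts in VP64-MyoD cells. The remaining vestigial-like gene VGLL1 was at 0 in every library and was not tested.

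TEAD proteins bind the MCAT element, a short DNA motif found in many muscle gene promoters, but need a partner to switch transcription on or off. YAP (YAP1) and TAZ (WWTR1) are coactivators that carry no DNA-binding domain and are kept out of the nucleus when LATS kinases, themselves switched on by the MST kinases of the Hippo pathway, phosphorylate them. The vestigial-like proteins (VGLL) bind the same face of TEAD, so they can take the place of YAP and TAZ. In skeletal muscle the family is known from mouse myoblasts, where Tead4 is a target of MyoD, YAP holds differentiation back, and TAZ can bind MyoD and favour it.

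The study compared how far MyoD, the transcription factor that starts the skeletal muscle program, turns skin fibroblasts toward muscle with and without a strong activation domain. VP64-MyoD cells were primary human dermal fibroblasts that expressed mouse MyoD with VP64, a synthetic activator built from repeats of a herpesvirus VP16 segment, joined to its N-terminus by a serine-glycine linker. WT-MyoD cells expressed the same mouse MyoD without VP64. Both transgenes sat in a Tet-ON lentiviral vector that also made dsRed-Express2 through a ribosome-skipping peptide. After puromycin selection and growth to confluence, both groups received doxycycline at 3 µg/mL and were collected on day 10. The labels name no added gene, vector, selection, doxycycline or collection day for untreated cells. Effects of these steps and of MyoD therefore cannot be told apart in comparisons with untreated cells. All groups came from 1 Coriell Institute line, with 2 libraries each, and polyadenylated RNA was sequenced without marking the strand. The p-values rest on the spread between these libraries, with each gene's estimate drawing on the other genes tested. They say nothing of other donors.

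The libraries held 40997586 to 53804224 counts. The mouse Myod1 transcript averaged 106 ± 13.4 CPM (counts per 1000000 counts of a library, scaled by edgeR's TMM factors) in VP64-MyoD cells, 886 ± 182 in WT-MyoD cells and 3.07 ± 2.86 in untreated cells (SD, n = 2 each). The untreated libraries thus held 127 and 23 read pairs of it, although their labels name no added gene. The source of these reads was not tested. The MyoD groups differed in the level of transgene RNA as well as in VP64. Effects of these cannot be told apart in VP64-MyoD over WT-MyoD cells. The summed level of 10 skeletal muscle markers was 3994 to 4600 CPM in VP64-MyoD cells, 913 to 1002 in WT-MyoD cells and 6.04 to 7.38 in untreated cells. MYOG, the gene of the differentiation factor myogenin, averaged 260 ± 29.2, 37.2 ± 2.10 and 0.274 ± 0.0661 CPM in the same order. The summed level of 10 dermal fibroblast markers was 31167 to 33741 CPM in VP64-MyoD cells, 29774 to 33953 in WT-MyoD cells and 43409 to 45835 in untreated cells. That sum is mostly collagen, with COL1A1 at 14227, 9717 and 18931 CPM and COL1A2 at 9263, 9421 and 13272 CPM in the same order. The single markers did not move together: of the 10, 2 were higher and 7 lower in VP64-MyoD over untreated cells (median log2 -0.47), and 4 were higher (DCN, LUM, THY1 and VIM) and 4 lower in WT-MyoD over untreated cells (median -0.04). Of all genes tested, 33.0% were higher and 30.0% lower in VP64-MyoD over untreated cells (median log2 0.03). In WT-MyoD over untreated cells these shares were 25.7% and 22.2% (median 0). The part of these markers in the results on the TEAD genes was not tested. In bulk RNA, fewer cells of a type and less RNA per cell cannot be told apart.

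TEAD4 and WWTR1 were higher in both MyoD groups than in untreated cells, and highest in VP64-MyoD cells. VGLL2 was detected at an appreciable level in VP64-MyoD cells alone. TEAD1, TEAD3, VGLL3 and VGLL4 were lower in both MyoD groups, TEAD2 was lower in WT-MyoD cells and YAP1 was lower in VP64-MyoD cells. In WT-MyoD over untreated cells, 3 of the 9 members were higher and 5 lower at an adjusted p under 0.05 (edgeR's quasi-likelihood test with Benjamini-Hochberg adjustment over all genes tested) (8 in all), against 25.7% and 22.2% of all genes tested (47.9% in all). In VP64-MyoD over untreated cells, 3 were higher and 5 lower, against 33.0% and 30.0% of all genes (63.0% in all). In VP64-MyoD over WT-MyoD cells, 4 were higher and 3 lower, against 28.3% and 28.2% of all genes (56.5% in all). The 2 groups' libraries did not overlap for 9 members in VP64-MyoD over untreated cells (83.2% of all genes tested), for 8 in WT-MyoD over untreated cells (71.4%) and for 8 in VP64-MyoD over WT-MyoD cells (78.1%), so these shares were common over the whole data. VGLL2 is among the higher members in each comparison, although it entered the fit only through VP64-MyoD. It is also among the members without overlap in both comparisons of VP64-MyoD cells. Leaving VGLL2 aside, the higher members were TEAD4 and WWTR1 in both comparisons over untreated cells. In VP64-MyoD over WT-MyoD cells they were TEAD3, TEAD4 and WWTR1. With VGLL2 included, the median log2 fold change of the members was -0.29, -0.33 and 0.19 in WT-MyoD over untreated, VP64-MyoD over untreated and VP64-MyoD over WT-MyoD cells. Over all genes tested it was 0, 0.03 and 0.02. The comparisons share libraries: both comparisons over untreated cells use the same 2 untreated libraries.

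**Figure D1:**
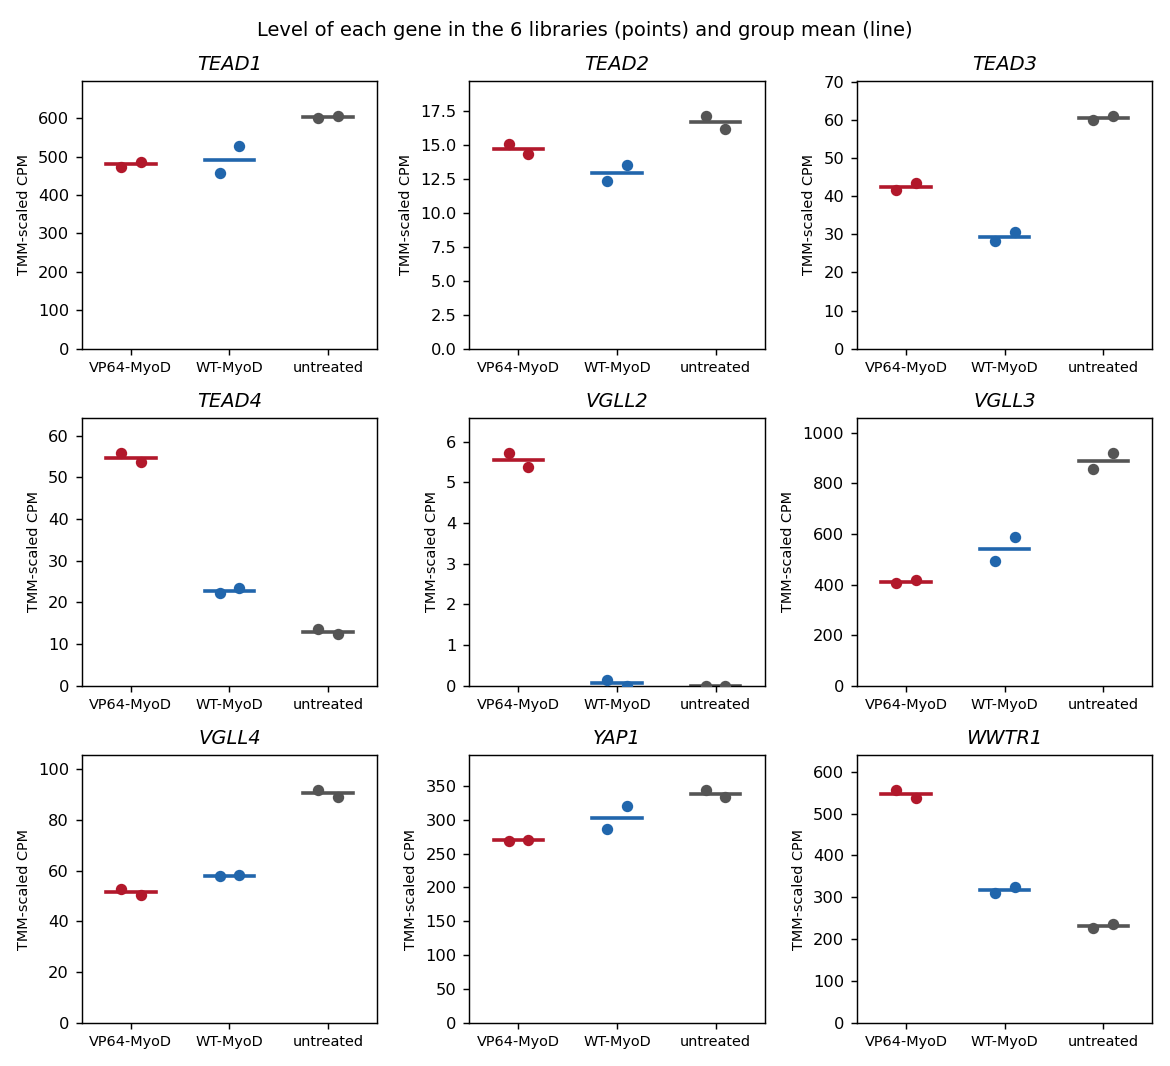
Level of each of the 9 genes in TMM-scaled CPM (vertical axes, from 0) in the 2 libraries of VP64-MyoD, WT-MyoD and untreated cells; points are libraries and lines are group means. TEAD4, VGLL2 and WWTR1 stand highest in VP64-MyoD cells (means 54.7, 5.55 and 546), whereas TEAD3, VGLL3 and VGLL4 stand highest in untreated cells (means 60.6, 889 and 90.5).

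Promoter windows of 300 bases, from 250 before to 50 after an annotated start, were taken from RefSeq (GRCh38.p14), with 13 windows matched for 7 of the 9 genes (all but TEAD1 and TEAD4). Each was searched on both strands for the E-box CANNTG, the motif that MyoD and other basic helix-loop-helix factors bind, and for the MCAT letters CATTCC, which read on the opposite strand as GGAATG. E-boxes occurred in 6 of the 13 windows and MCAT letters in 1, against 68.7% and 14.0% of 35116 windows in all, and no 2 matches overlapped. The windows below show 2 genes that rose and 3 that fell, with motif letters in capitals. Windows with and without matches occur in both directions: VGLL2, which rose, and VGLL3, which fell, hold neither motif. This window of WWTR1, which rose, holds the E-boxes CATGTG and CAGATG, and its other window holds none. VGLL4, which fell, holds 4 E-boxes in this window, the most of its 5 windows, and 1, 1, 1 and 0 in the others. YAP1 holds 1 E-box and 1 GGAATG. No binding was measured, and a match describes letters only.
VGLL2, chr6:117265308-117265607, plus strand: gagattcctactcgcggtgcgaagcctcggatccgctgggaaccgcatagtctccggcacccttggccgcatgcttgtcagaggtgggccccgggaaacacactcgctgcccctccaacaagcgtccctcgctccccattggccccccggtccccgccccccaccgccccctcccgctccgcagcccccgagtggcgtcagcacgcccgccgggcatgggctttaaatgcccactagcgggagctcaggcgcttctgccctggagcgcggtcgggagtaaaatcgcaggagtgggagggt
WWTR1, chr3:149703224-149703523, minus strand: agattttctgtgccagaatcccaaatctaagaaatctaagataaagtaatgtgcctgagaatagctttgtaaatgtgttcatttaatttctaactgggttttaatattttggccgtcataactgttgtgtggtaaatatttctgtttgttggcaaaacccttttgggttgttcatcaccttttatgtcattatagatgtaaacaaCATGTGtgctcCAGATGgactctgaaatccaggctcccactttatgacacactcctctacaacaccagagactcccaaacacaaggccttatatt
VGLL3, chr3:86991100-86991399, minus strand: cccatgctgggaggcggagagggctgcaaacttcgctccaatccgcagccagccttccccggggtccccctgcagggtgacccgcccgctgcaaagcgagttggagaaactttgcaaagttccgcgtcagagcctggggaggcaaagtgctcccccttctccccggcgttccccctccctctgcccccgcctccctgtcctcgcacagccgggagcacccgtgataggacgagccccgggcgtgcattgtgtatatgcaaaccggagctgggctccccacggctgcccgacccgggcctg
VGLL4, chr3:11604532-11604831, minus strand: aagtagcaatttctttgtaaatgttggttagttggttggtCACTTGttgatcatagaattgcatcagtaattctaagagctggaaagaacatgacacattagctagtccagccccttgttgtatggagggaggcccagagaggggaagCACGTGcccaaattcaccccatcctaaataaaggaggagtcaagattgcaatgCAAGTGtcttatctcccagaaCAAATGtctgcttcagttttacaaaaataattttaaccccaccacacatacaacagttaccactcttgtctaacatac
YAP1, chr11:102110197-102110496, plus strand: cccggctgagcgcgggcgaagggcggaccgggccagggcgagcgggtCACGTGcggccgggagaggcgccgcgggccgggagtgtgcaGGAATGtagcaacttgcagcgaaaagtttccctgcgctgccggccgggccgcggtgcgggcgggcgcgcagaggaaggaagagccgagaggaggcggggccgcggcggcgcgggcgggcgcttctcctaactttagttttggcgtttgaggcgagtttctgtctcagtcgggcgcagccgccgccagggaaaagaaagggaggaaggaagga

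TEAD4, the family member tied to myogenic differentiation in mouse, rose in both MyoD groups. Its level was 55.8 and 53.6 CPM in VP64-MyoD libraries, 22.3 and 23.4 CPM in WT-MyoD libraries, and 13.6 and 12.4 CPM in untreated libraries. The 3 groups did not overlap, and VP64-MyoD cells were highest. TEAD4 was 4.21-fold higher in VP64-MyoD than in untreated cells (log2 2.07, SE 0.08, edgeR adjusted p = 3.94e-12), and 7.60% of the genes tested had a larger log2 fold change. In WT-MyoD over untreated cells the log2 fold change was 0.81 (SE 0.08, edgeR adjusted p = 5.82e-07). VP64-MyoD cells exceeded WT-MyoD cells by 1.26 on the log2 scale (SE 0.08, edgeR adjusted p = 1.56e-09). The gene's 3 transcript rows moved alike, with log2 ratios of 1.91 to 2.25 in VP64-MyoD over untreated cells and 0.80 to 0.84 in WT-MyoD over untreated cells. How the authors assigned reads shared between isoforms is not given in the sources used here, so these rows are not independent. The authors' deposited table lists the same 3 transcripts at log2 fold changes of 1.91, 2.16 and 2.25 for VP64-MyoD and 0.81, 0.81 and 0.84 for WT-MyoD.

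TEAD3, described chiefly in placenta, was lower in both MyoD groups and lowest with WT-MyoD. It had 41.6 and 43.5 CPM in VP64-MyoD libraries, 28.1 and 30.8 CPM in WT-MyoD libraries, and 60.0 and 61.2 CPM in untreated libraries. No groups overlapped, and the VP64-MyoD libraries lay between the other two. Its log2 fold change was -1.04 in WT-MyoD over untreated cells (SE 0.07, edgeR adjusted p = 5.26e-09), a fall beyond that of all but 4.48% of the genes tested. It was -0.51 in VP64-MyoD over untreated cells (SE 0.07, edgeR adjusted p = 1.20e-05). VP64-MyoD cells were 0.53 higher on the log2 scale than WT-MyoD cells (SE 0.07, edgeR adjusted p = 1.28e-05). The authors' deposited table gives -0.51 for VP64-MyoD and -1.04 for WT-MyoD.

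TEAD1, a broadly expressed activator of MCAT-containing muscle genes, was lower by a smaller amount. It had 474 and 487 CPM in VP64-MyoD libraries, 457 and 527 CPM in WT-MyoD libraries, and 600 and 606 CPM in untreated libraries. Both MyoD groups lay below untreated cells and overlapped each other. The log2 fold change was -0.33 in VP64-MyoD over untreated cells (SE 0.07, edgeR adjusted p = 0.00100) and -0.29 in WT-MyoD over untreated cells (SE 0.07, edgeR adjusted p = 0.00329). VP64-MyoD over WT-MyoD gave -0.03 (SE 0.07, edgeR adjusted p = 0.709), a sign that depends on single libraries: it was -0.13 (adjusted p = 0.036) without WT-MyoD replicate 1 and 0.06 (adjusted p = 0.397) without WT-MyoD replicate 2. TEAD2, a gene best known from early embryos, had the lowest counts of the 4 in both MyoD groups. In untreated cells TEAD4 had the lowest. TEAD2 had 15.1 and 14.3 CPM in VP64-MyoD libraries, 12.3 and 13.6 CPM in WT-MyoD libraries, and 17.2 and 16.2 CPM in untreated libraries. WT-MyoD cells lay lowest, without overlap. TEAD2 fell by 0.37 on the log2 scale in WT-MyoD over untreated cells (SE 0.09, edgeR adjusted p = 0.00387), a call that was lost when its most abundant transcript row alone was tested (adjusted p = 0.0848). The differences of VP64-MyoD from untreated cells (-0.18, adjusted p = 0.0975) and from WT-MyoD cells (0.19, adjusted p = 0.102) did not pass the edgeR test.

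**Figure D2:**
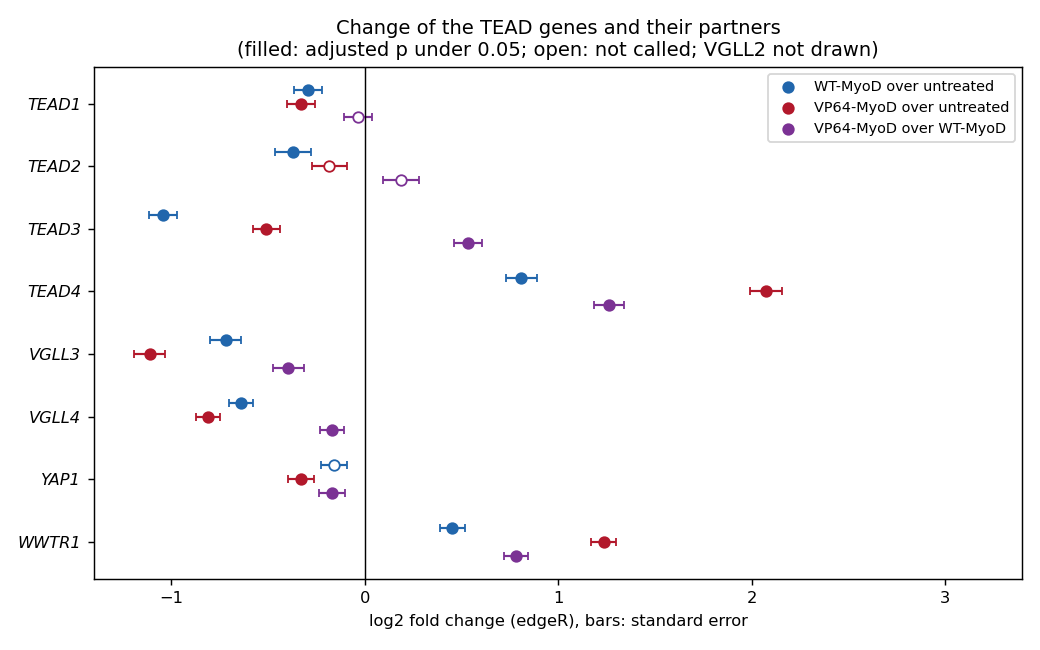
Log2 fold change (horizontal axis, edgeR) of 8 of the 9 genes in the 3 comparisons, with bars of 1 standard error; filled points passed an adjusted p of 0.05 and open points did not. TEAD4 lies at 2.07 in VP64-MyoD over untreated cells and TEAD3 at -1.04 in WT-MyoD over untreated cells; VGLL2 is not drawn because untreated cells had no counts.

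To set the 4 paralogs against each other, CPM was divided by transcript length. The shares also depend on the unknown assignment of reads shared between isoforms. The rows summed were 6 for TEAD2, 3 for TEAD4 and 1 each for TEAD1 and TEAD3. The first rule took the longest GENCODE transcript matched to a gene's RefSeq rows. By it, TEAD4 made up 13.4% of the summed TEAD level in VP64-MyoD cells, 6.08% in WT-MyoD cells and 2.82% in untreated cells. With the longest GENCODE transcript of the gene, matched or not, a setting added after seeing the data, these shares were 29.6%, 15.6% and 7.25%. The difference comes from TEAD1, whose length is 2544 bases by the first rule and 8477 by the second. TEAD1 was the highest TEAD gene per length in every group under both, at 78.0%, 86.8% and 86.9% of the sum by the first rule and 51.8%, 66.9% and 67.1% by the second, in the same order. The groups' order for TEAD4 did not depend on length, since a gene's length is the same in every library. TEAD4 counts per TEAD3 count averaged 1.29 ± 0.0782 in VP64-MyoD, 0.775 ± 0.0219 in WT-MyoD and 0.214 ± 0.0162 in untreated libraries (SD, n = 2 each).

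WWTR1, which encodes the coactivator TAZ, rose in both MyoD groups. Its level was 556 and 536 CPM in VP64-MyoD libraries, 309 and 325 CPM in WT-MyoD libraries, and 227 and 236 CPM in untreated libraries. No groups overlapped. WWTR1 was 2.36-fold higher in VP64-MyoD than in untreated cells (log2 1.24, SE 0.06, edgeR adjusted p = 1.46e-10), a change exceeded by 11.6% of the genes tested. In WT-MyoD over untreated cells the log2 fold change was 0.45 (SE 0.06, edgeR adjusted p = 2.18e-05). In VP64-MyoD over WT-MyoD cells it was 0.78 (SE 0.06, edgeR adjusted p = 4.72e-08). The 3 transcript rows of WWTR1 kept nearly fixed shares, each between 30.9% and 36.7% of the gene in every library. In the authors' deposited table their log2 fold changes were 1.16 to 1.29 for VP64-MyoD and 0.43 to 0.49 for WT-MyoD. An antisense gene, WWTR1-AS1, overlaps WWTR1 exons and had 1 to 7 read pairs in a library, against at least 5199 for WWTR1.

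YAP1, the paralog of WWTR1, moved the other way and less. It had 269 and 271 CPM in VP64-MyoD libraries, 286 and 321 CPM in WT-MyoD libraries, and 344 and 333 CPM in untreated libraries. The groups did not overlap, and VP64-MyoD cells were lowest. YAP1 fell by 0.33 on the log2 scale in VP64-MyoD over untreated cells (SE 0.07, edgeR adjusted p = 5.60e-04). The difference of -0.16 in WT-MyoD over untreated cells did not pass (SE 0.07, edgeR adjusted p = 0.0640). That of -0.17 in VP64-MyoD over WT-MyoD cells passed narrowly (SE 0.07, edgeR adjusted p = 0.0443) and was lost in 7 of 15 alternative analyses, among them the omission of either VP64-MyoD library (adjusted p = 0.195 and 0.165), of WT-MyoD replicate 2 (0.123) and of either untreated library (0.0775 and 0.0755). For WT-MyoD over untreated cells, YAP1 passed without WT-MyoD replicate 2 (log2 -0.23, adjusted p = 7.59e-04).

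Within a library, WWTR1 counts per YAP1 count were 2.07 and 1.98 in VP64-MyoD cells, 1.08 and 1.02 in WT-MyoD cells, and 0.661 and 0.709 in untreated cells. The ratio thus exceeded 1 in all 4 MyoD libraries and lay below 1 in both untreated libraries. It is a ratio of raw counts, so it is free of the scaling between libraries. Its value at any one group, and so its side of 1, still depends on the lengths of the 2 transcripts. It also depends on how reads shared between isoforms were assigned, which is not known. TEAD4 counts per TEAD1 count averaged 0.114 ± 0.00553 in VP64-MyoD, 0.0465 ± 0.00306 in WT-MyoD and 0.0215 ± 0.00149 in untreated cells (SD, n = 2 each), and the groups did not overlap.

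**Figure D3:**
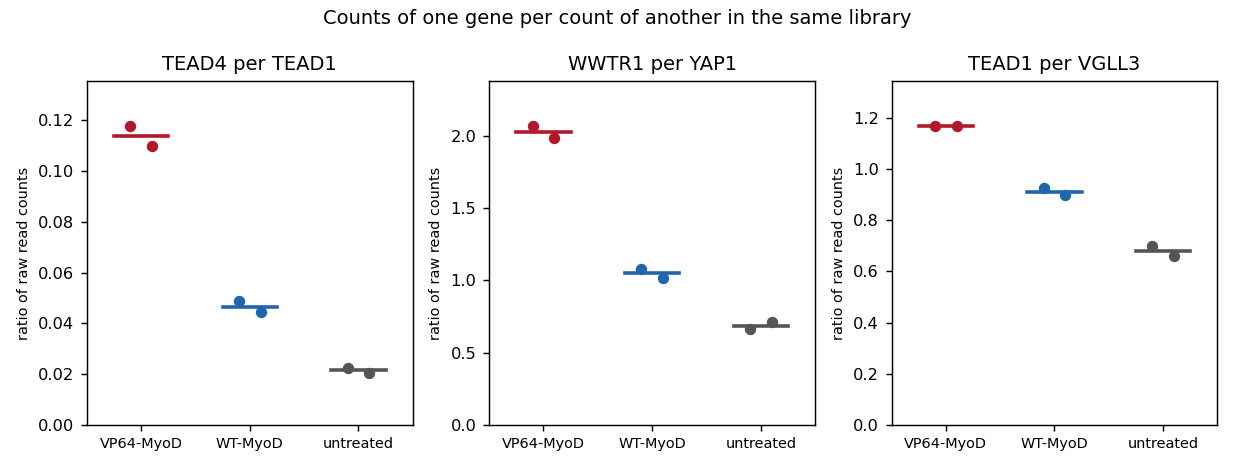
Raw counts of one gene per count of another in the same library (vertical axes, from 0) for TEAD4 per TEAD1, WWTR1 per YAP1 and TEAD1 per VGLL3 in VP64-MyoD, WT-MyoD and untreated cells; points are libraries and lines are group means. All 3 ratios are highest in VP64-MyoD and lowest in untreated cells, with mean WWTR1 per YAP1 ratios of 2.02, 1.05 and 0.685 in that order.

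Among the vestigial-like cofactors, VGLL2, described as a muscle-specific TEAD partner in mouse, was seen almost only with VP64-MyoD. It had 5.72 and 5.38 CPM (133 and 141 read pairs) in VP64-MyoD libraries, 0.141 and 0 CPM (4 and 0 read pairs) in WT-MyoD libraries, and 0 in both untreated libraries. VP64-MyoD cells lay apart from both other groups, and WT-MyoD and untreated cells overlapped at 0. Taking 3 read pairs over the untreated group (0.0639 CPM) as the floor that a count of 0 allows, VGLL2 was at least 86.7-fold higher in VP64-MyoD than in untreated cells. The pooled ratio of VP64-MyoD to WT-MyoD cells was 67.7 (95% exact interval 26.1 to 250.1, 274 against 4 read pairs, for counting error alone). Because VGLL2 entered the fit only through its VP64-MyoD counts, no p is given for these 2 comparisons. The call in WT-MyoD over untreated cells (adjusted p = 0.0441) rests on the 4 read pairs of replicate 1. It was gone without that library (adjusted p = 1) and in DESeq2 (adjusted p = 0.283), and also without either VP64-MyoD library (0.0505 and 0.0515) or either untreated library (0.152 and 0.131). VGLL2 in WT-MyoD cells could not be told from 0 with confidence at this depth. The window of VGLL2 printed with its coordinates holds neither an E-box nor MCAT letters.

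VGLL3, a TEAD cofactor known in myoblasts and fibroblasts, was lower in both MyoD groups. It had 406 and 417 CPM in VP64-MyoD libraries, 495 and 586 CPM in WT-MyoD libraries, and 857 and 920 CPM in untreated libraries. The 3 groups did not overlap. VGLL3 was 2.16-fold lower in VP64-MyoD than in untreated cells (log2 -1.11, SE 0.08, edgeR adjusted p = 7.89e-09) and 1.64-fold lower in WT-MyoD than in untreated cells (log2 -0.72, SE 0.08, edgeR adjusted p = 1.64e-06). VP64-MyoD cells were lower than WT-MyoD cells with log2 -0.39 (SE 0.08, edgeR adjusted p = 5.74e-04). VGLL4, which competes with YAP for TEAD, had 52.9 and 50.4 CPM in VP64-MyoD libraries, 57.8 and 58.3 CPM in WT-MyoD libraries, and 91.8 and 89.2 CPM in untreated libraries. The untreated libraries stood well above both MyoD groups, which differed little from each other. VGLL4 fell by 0.81 on the log2 scale in VP64-MyoD (SE 0.06, edgeR adjusted p = 1.82e-08) and by 0.64 in WT-MyoD (SE 0.06, edgeR adjusted p = 3.67e-07), each over untreated cells. The difference between the MyoD groups was -0.17 (SE 0.06, edgeR adjusted p = 0.0316). It was lost in 6 of 15 alternatives, among them without either VP64-MyoD library (adjusted p = 0.0773 and 0.240) and without either untreated library (0.0574 and 0.0560).

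TEAD1 counts per VGLL3 count averaged 1.17 in VP64-MyoD, 0.911 in WT-MyoD and 0.679 in untreated cells, with no overlap of the groups, whereas VGLL3 per VGLL4 overlapped between WT-MyoD and untreated libraries. Exons of TEAD2, VGLL4 and YAP1 overlap genes on the opposite strand (CD37; ATG7 and AC022001.2; AP000942.2), and reads from such stretches cannot be assigned to a strand.

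Per kilobase of the longest GENCODE transcript, the order of the cofactors and TEAD genes differed between groups. Each level sums the transcript rows of a gene, 3 for WWTR1, 4 for YAP1 and 1 each for TEAD1 and VGLL3. If reads shared by isoforms were counted in each row, genes with more rows would stand too high. The order of genes within a group is therefore uncertain, and this was not tested. In VP64-MyoD cells WWTR1 led with 109 CPM per kb, followed by TEAD1 (56.7), YAP1 (49.96), VGLL3 (39.5), TEAD4 (32.4), TEAD3 (14.3), VGLL4 (13.9), TEAD2 (6.03) and VGLL2 (2.51). Of these neighbours, TEAD3 and VGLL4 overlapped. In WT-MyoD cells WWTR1 (63.1 CPM per kb), TEAD1 (58.0), YAP1 (56.2) and VGLL3 (52.0) each overlapped the next, and VGLL4 (15.6), TEAD4 (13.5), TEAD3 (9.87), TEAD2 (5.31) and VGLL2 (0.0319) followed without overlap. In untreated cells VGLL3 led with 85.5 CPM per kb, followed without overlap by TEAD1 (71.1), YAP1 (62.7), WWTR1 (46.1), VGLL4 (24.3), TEAD3 (20.3), TEAD4 (7.68), TEAD2 (6.84) and VGLL2 (0). By the lengths of GENCODE transcripts matched to RefSeq rows, which WWTR1 lacks, TEAD1 came first in every group. TEAD4 and TEAD2 then overlapped in untreated cells.

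Target genes of YAP, TAZ and TEAD split in both directions. Of 22 such genes, 5 were higher and 15 lower in VP64-MyoD over untreated cells (median log2 fold change -0.41, 0.03 over all genes, of which 33.0% were higher and 30.0% lower), 5 higher and 10 lower in WT-MyoD over untreated cells (median -0.12, 0 over all genes, 25.7% and 22.2%), and 8 higher and 13 lower in VP64-MyoD over WT-MyoD cells (median -0.28, 0.02 over all genes, 28.3% and 28.2%). ANKRD1, a striated muscle ankyrin-repeat gene widely used as a YAP readout, averaged 217 ± 22.4 CPM in VP64-MyoD, 27.97 ± 1.503 in WT-MyoD and 8.72 ± 0.200 in untreated cells (SD, n = 2 each), log2 4.64 and 1.68 over untreated cells (edgeR adjusted p = 9.71e-16 and 2.48e-10). TGFB2, which encodes the growth factor TGF-beta 2, averaged 49.96, 11.03 and 3.73 CPM in the same order (log2 3.75 in VP64-MyoD over untreated cells, edgeR adjusted p = 3.66e-14). CCN2, the connective tissue growth factor gene and another common YAP readout, averaged 1488 ± 66.1 CPM in VP64-MyoD, 524 ± 6.70 in WT-MyoD and 1755 ± 116 in untreated cells. CCN2 was therefore lower in WT-MyoD than in untreated cells (log2 -1.74, edgeR adjusted p = 1.54e-11), where ANKRD1 was higher. NT5E, which encodes the ectoenzyme CD73, was highest in WT-MyoD cells, at 381 CPM in VP64-MyoD, 659 in WT-MyoD and 252 in untreated cells. CCDC80, a matrix protein gene, averaged 1143, 1366 and 3622 CPM in that order and fell by 1.66 in VP64-MyoD and by 1.41 in WT-MyoD on the log2 scale over untreated cells (edgeR adjusted p = 5.02e-11 and 4.42e-10). RBMS3, an RNA-binding protein gene, averaged 58.2, 81.7 and 145 CPM in that order. AMOTL2, which encodes an angiomotin-like protein, averaged 165, 248 and 249 CPM.

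**Figure D4:**
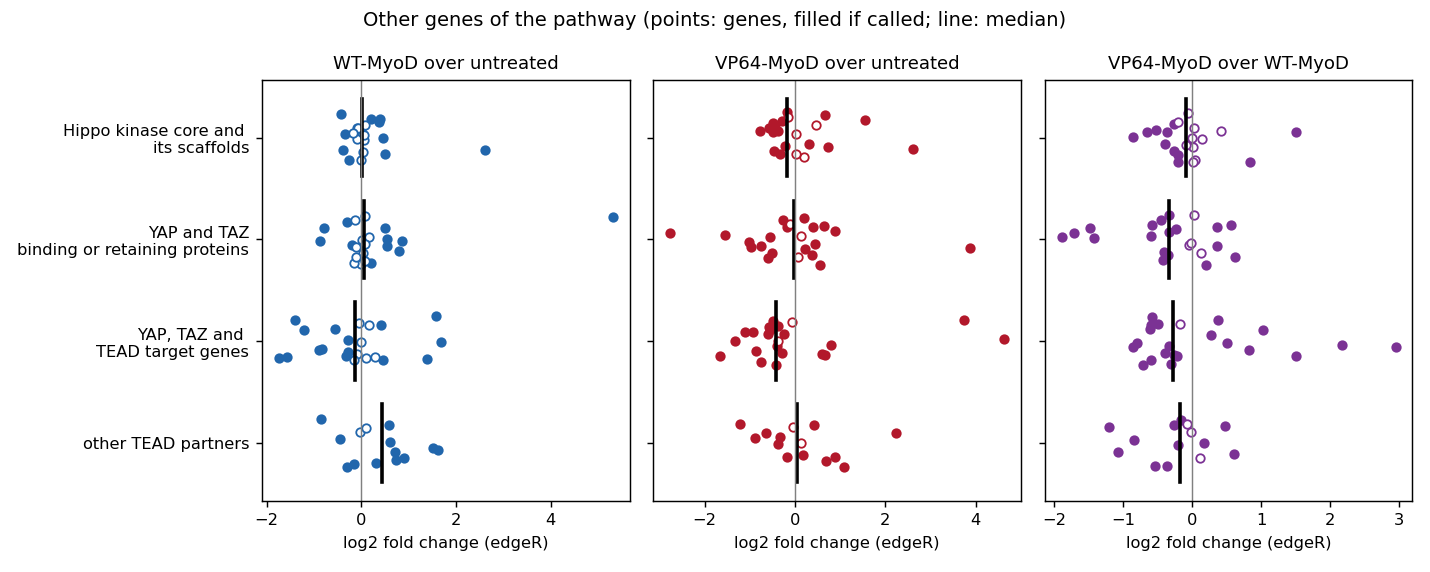
Log2 fold change (horizontal axes, edgeR) of the genes of 4 pathway lists in the 3 comparisons; points are genes, filled at an adjusted p under 0.05, and black lines are list medians. Target genes reach 4.64 (ANKRD1, VP64-MyoD over untreated cells) while their median is -0.41.

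Muscle genes with a described MCAT element were mostly higher with MyoD. TNNT2, cardiac troponin T, which embryonic skeletal muscle also makes, averaged 532 ± 17.0 CPM in VP64-MyoD, 165 ± 6.68 in WT-MyoD and 0.457 ± 0.261 in untreated cells (SD, n = 2 each). ACTA1, skeletal muscle actin, averaged 222 ± 23.7, 34.7 ± 2.94 and 0.274 ± 0.0661 CPM in that order. Of the 4 genes tested, 4 were higher in VP64-MyoD over untreated cells, 3 higher and 1 lower in WT-MyoD over untreated cells, and 3 higher in VP64-MyoD over WT-MyoD cells. The shares over all genes tested were 33.0% higher and 30.0% lower, 25.7% and 22.2%, and 28.3% and 28.2% in these comparisons. MYH7, at 0 in untreated cells, entered the fit only through the MyoD groups. ACTA1 is also among the skeletal muscle markers. The gene that fell was ACTA2, smooth muscle actin, at 650 ± 10.8 CPM in VP64-MyoD, 216 ± 10.2 in WT-MyoD and 555 ± 24.7 in untreated cells (log2 -1.36 in WT-MyoD over untreated cells, edgeR adjusted p = 9.73e-11). ACTA2 is also 1 of 6 smooth muscle markers, whose summed level was 794 to 818 CPM in VP64-MyoD, 283 to 298 in WT-MyoD and 613 to 642 in untreated cells. ACTA2 itself makes up most of that sum. Other smooth muscle markers went other ways, with SMTN at 144, 70.2 and 41.8 CPM and CNN1 at 5.47, 1.89 and 29.5 CPM in the same order. MYH7 and MYH6, the near-identical cardiac myosin genes, averaged 1.18 and 0.143 CPM in VP64-MyoD, 1.13 and 0.0177 in WT-MyoD, and 0 in untreated cells. Their reads can be split between the 2 copies, so these values are uncertain.

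The kinases upstream of YAP and TAZ and their scaffolds moved in both directions. LATS2, AMOTL2 and PTPN14 each stand in 2 of the lists. Of 21 Hippo core and scaffold genes, 5 were higher and 11 lower in VP64-MyoD over untreated cells (median log2 -0.17), 6 higher and 4 lower in WT-MyoD over untreated cells (median 0.01), and 2 higher and 9 lower in VP64-MyoD over WT-MyoD cells (median -0.09). The shares over all genes tested were 33.0% higher and 30.0% lower in VP64-MyoD over untreated cells, 25.7% and 22.2% in WT-MyoD over untreated cells, and 28.3% and 28.2% in VP64-MyoD over WT-MyoD cells. The WT-MyoD counts were thus near the background. Single libraries moved these counts: 10 were higher in WT-MyoD over untreated cells without WT-MyoD replicate 1, and in VP64-MyoD over WT-MyoD cells 4 were higher without WT-MyoD replicate 2, and 5, 4 and 5 were lower without VP64-MyoD replicate 1, VP64-MyoD replicate 2 and WT-MyoD replicate 2. LATS2, a kinase that phosphorylates YAP and TAZ and is itself a target gene of theirs, averaged 90.3 ± 0.386 CPM in VP64-MyoD, 119 ± 1.57 in WT-MyoD and 126 ± 4.16 in untreated cells (log2 -0.48 in VP64-MyoD over untreated cells, edgeR adjusted p = 4.82e-06). MINK1, a MAP4K-family kinase, averaged 70.9, 129 and 121 CPM in that order and was lower in VP64-MyoD than in both other groups (log2 -0.86 over WT-MyoD cells, edgeR adjusted p = 1.41e-07). SAV1, the scaffold of the MST kinases, averaged 43.9, 68.7 and 59.4 CPM in that order and was 0.65 lower on the log2 scale in VP64-MyoD than in WT-MyoD cells (log2 fold change -0.65, edgeR adjusted p = 6.20e-07). FRMD6, a scaffold related to fly Expanded, averaged 1127, 632 and 676 CPM (log2 0.74 in VP64-MyoD over untreated cells, edgeR adjusted p = 1.23e-07). TNIK, a MAP4K-related kinase, averaged 8.998, 8.97 and 1.46 CPM and was higher in both MyoD groups than in untreated cells (log2 2.61 and 2.60, edgeR adjusted p = 1.35e-09 and 1.74e-09). MOB1A and MOB1B, paralogous coactivators of the LATS kinases, went opposite ways in WT-MyoD over untreated cells (log2 -0.35 and 0.51, edgeR adjusted p = 3.27e-04 and 1.00e-05). MOB1A averaged 57.5 CPM in VP64-MyoD, 56.7 in WT-MyoD and 72.5 in untreated cells, and MOB1B averaged 111, 100.4 and 70.5 CPM in that order. WWC2, a scaffold related to KIBRA, averaged 165, 161 and 216 CPM.

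The list of proteins that bind or retain YAP and TAZ was broad. It also held the cadherin gene FAT4 and its ligand gene DCHS1, cell polarity genes and LIM protein genes. Of its 26 genes, 22 were tested. In VP64-MyoD over untreated cells 9 were higher and 10 lower (median log2 -0.02), in WT-MyoD over untreated cells 7 were higher and 4 lower (median 0.06), and in VP64-MyoD over WT-MyoD cells 5 were higher and 13 lower (median -0.33), beside 33.0% and 30.0%, 25.7% and 22.2%, and 28.3% and 28.2% of all genes tested in these comparisons. FAT4, an atypical cadherin, averaged 47.7 ± 4.08 CPM in VP64-MyoD, 177 ± 35.3 in WT-MyoD and 325 ± 1.02 in untreated cells (log2 -2.77 and -0.88 over untreated cells, edgeR adjusted p = 4.24e-12 and 2.42e-06). Its ligand gene DCHS1 averaged 22.03, 72.4 and 65.0 CPM (log2 -1.56 in VP64-MyoD over untreated cells, edgeR adjusted p = 6.56e-09). AMOT, angiomotin, which holds YAP in the cytoplasm, averaged 10.7, 29.7 and 21.0 CPM (log2 -1.48 in VP64-MyoD over WT-MyoD cells, edgeR adjusted p = 2.21e-09). LIMD1, a LIM protein that binds LATS kinases, averaged 54.9, 53.9 and 29.8 CPM and was higher in both MyoD groups than in untreated cells (log2 0.88 and 0.85, edgeR adjusted p = 4.05e-07 and 8.38e-07). Its relatives AJUBA and WTIP differed in WT-MyoD over untreated cells (log2 0.80 and -0.79, edgeR adjusted p = 5.27e-08 and 5.72e-07). AJUBA averaged 127, 170.3 and 98.2 CPM, and WTIP averaged 17.5, 20.6 and 35.4 CPM, in VP64-MyoD, WT-MyoD and untreated cells. YWHAG, a 14-3-3 protein gene, averaged 307, 198 and 195 CPM, and DLG1, a cell polarity scaffold, averaged 198, 134 and 145 CPM in that order.

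Other factors that join TEAD on DNA were led by MEF2C, a myocyte enhancer factor. It averaged 93.5 ± 1.74 CPM in VP64-MyoD, 61.1 ± 0.136 in WT-MyoD and 20.0 ± 0.563 in untreated cells (log2 2.23 and 1.61 over untreated cells, edgeR adjusted p = 1.74e-13 and 1.27e-11). Of these 14 genes, 6 were higher and 6 lower in VP64-MyoD over untreated cells (median log2 0.04), 8 higher and 4 lower in WT-MyoD over untreated cells (median 0.45), and 3 higher and 8 lower in VP64-MyoD over WT-MyoD cells (median -0.18). All genes tested were called at 33.0% higher and 30.0% lower, 25.7% and 22.2%, and 28.3% and 28.2% in the same comparisons. The last count was 5 without VP64-MyoD replicate 1. FOSL1, an AP-1 subunit gene, averaged 47.6, 85.0 and 29.6 CPM in VP64-MyoD, WT-MyoD and untreated cells (log2 1.52 in WT-MyoD over untreated cells, edgeR adjusted p = 2.24e-11). SMAD3, a transducer of TGF-beta signals, averaged 104, 218 and 131 CPM in that order (log2 -1.07 in VP64-MyoD over WT-MyoD cells, edgeR adjusted p = 2.06e-09). The steroid receptor coactivator genes moved apart, with NCOA1 at 185, 133 and 87.6 CPM, NCOA2 at 44.3, 102 and 81.9 CPM, and NCOA3 at 101, 116 and 158 CPM in that order. FOS, another AP-1 subunit gene, averaged 11.7, 15.0 and 27.2 CPM and was lower in both MyoD groups than in untreated cells (log2 -1.22 and -0.86, edgeR adjusted p = 2.67e-08 and 1.68e-06).

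Genes with the pattern nearest to TEAD4 and WWTR1 were found among 13424 tested genes by the Euclidean distance between their centred log2(CPM + 0.5) values over the 6 libraries. For TEAD4 they were ZNF474 (distance 0.127), CHDH (0.182), SELENOW (0.227), COL5A3 (0.237) and KRTAP2-3 (0.250). ZNF474 averaged only 2.20, 0.694 and 0.168 CPM in VP64-MyoD, WT-MyoD and untreated cells. KRTAP2-3 averaged 2.61, 0.915 and 0.380 CPM in that order. At such levels the added 0.5 narrows the differences between groups, so the distances of these genes depend on it. SELENOW, a selenoprotein gene, averaged 129 CPM in VP64-MyoD, 49.8 in WT-MyoD and 27.5 in untreated cells. For WWTR1 they were VCAM1 (distance 0.128), MMP15 (0.129), DUSP6 (0.136), VASH1 (0.138) and FXR1 (0.150). FXR1, which encodes an RNA-binding protein abundant in muscle, averaged 190 CPM in VP64-MyoD, 115 in WT-MyoD and 81.6 in untreated cells.

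Markers of other cell types summed to far less than those of fibroblasts, and some moved with the groups. The 7 keratinocyte markers summed to 18.5 to 18.9 CPM in VP64-MyoD, 8.27 to 9.43 in WT-MyoD and 6.37 to 7.18 in untreated cells, with 5 of them under 1 CPM everywhere and KRT1 at 0. TP63 (9.56, 3.34 and 0.307 CPM in that order) and KRT10 (7.68, 4.32 and 5.26 CPM) made up most of that sum. The 5 melanocyte markers summed to at most 1.36 CPM, with TYR at 0, and the 5 endothelial markers to between 8.17 and 11.6 CPM. TEK made up most of the endothelial sum, at 9.48 CPM in VP64-MyoD, 6.60 in WT-MyoD and 10.5 in untreated cells. The 6 blood cell markers summed to 45.8 to 47.2 CPM in VP64-MyoD, 178 to 182 in WT-MyoD and 68.8 to 70.5 in untreated cells, with CD3E and AIF1 at 0. CD68, a lysosomal protein gene that fibroblasts can also express, made up nearly all of that sum (43.8, 176 and 66.8 CPM), and PTPRC, CD14 and LYZ averaged at most 1.62 CPM in any group. Their part in the differences between groups was not tested.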

How the data were processed

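The comparison used 6 libraries, 2 each of VP64-MyoD, WT-MyoD and untreated cells, grouped by GEO's labels. The hg19 build, CASAVA, DESeq 1.10.1 and Bowtie 0.12.9 are named, without their roles, in the submitters' processing notes. The deposited table holds raw read counts for 40710 RefSeq transcripts, all of them even, which makes 2 counts 1 read pair here. In the authors' deposited table of 3135 transcripts, the log2 fold changes and adjusted p-values compare each MyoD group with untreated cells, per the file headers. It holds 11 member transcripts of 5 member genes, and only its log2 fold changes were copied.

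Transcripts were matched to symbols through RefSeq (39324) and GENCODE 29 (517). The 868 unmatched rows, 0.601 to 0.744% of counts, stayed in the fit under their accession. Counts were summed per symbol, filtered with filterByExpr (minimum count 10), scaled by TMM and tested with edgeR 4.0.16 (quasi-likelihood, 3 groups in 1 fit, 3 residual degrees of freedom, R 4.3.3). P-values were adjusted over all genes tested. Each SE was derived from the test, as the absolute log2 fold change divided by the square root of its F statistic. The scripts were tested on simulated data. Counting intervals and floors cover counting error only, since PCR duplicates cannot be seen. Named list genes were, per list, direction and comparison, up to 2 called genes with the smallest adjusted p at a mean of at least 5 CPM, and every MCAT muscle gene; their levels are given in all groups. Members, lists and rules were chosen with earlier results of these data known. Alternatives were DESeq2 1.42.0, limma 3.58.1 (voom), RLE factors, no or a stricter filter, a replicate block, only the groups compared, halved counts, the most abundant transcript row, and omission of each library. Replicates of a group differed beyond sampling noise (chi-square per degree of freedom 5.63 in VP64-MyoD, 12.9 in WT-MyoD and 3.29 in untreated cells), so each library counted as 1 sample.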

Additional observations from a re-analysis of the deposited data

How the results depend on the processing

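Over 15 alternatives, 374 of 404 tests of the 9 genes kept their direction and side of the threshold. So did all 756 tests of the 54 calls of listed genes picked by the naming rule, which favours small adjusted p. Counts over whole lists moved by more than 1.5 times in 6 of 420 cases, given beside those lists. TEAD3, TEAD4, VGLL3 and WWTR1 kept every call in all 3 comparisons, and all counts over all genes stayed within 1.5 times. The number of members lower in VP64-MyoD than in WT-MyoD cells, 3, was 1 when only those groups were fitted and 1 to 4 when single libraries were left out. TEAD1 in VP64-MyoD over WT-MyoD cells ranged over -0.13 to 0.057 on the log2 scale when single libraries were left out, with the sign reversed (0.057) without WT-MyoD replicate 2. VGLL2 in WT-MyoD over untreated cells lost its call in 10 of 14 alternatives, VGLL4 and YAP1 in VP64-MyoD over WT-MyoD cells in 6 and 7 of 15. The cause was not tested. YAP1 in WT-MyoD over untreated cells passed in DESeq2 (adjusted p = 0.0486), limma-voom (0.0419) and without a filter (0.0472).

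Same-numbered libraries showed no strong shared deviation: their deviations correlated at -0.06 (VP64-MyoD and WT-MyoD), 0.04 (VP64-MyoD and untreated) and 0.13 (WT-MyoD and untreated) over 10858 genes. With 2 libraries a group, these values cannot show whether same-numbered libraries were made together. With the replicate block, 5180 genes were higher and 4717 lower in VP64-MyoD over untreated cells, 4028 and 3496 in WT-MyoD over untreated cells, and 4462 and 4428 in VP64-MyoD over WT-MyoD cells. Among the members, VGLL2 in WT-MyoD over untreated cells alone changed its call (adjusted p = 0.0502), which left 2 members higher there. With 2 libraries a group, small differences such as those of YAP1 and TEAD2 lie near what this design can resolve.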
